A study of Homo sapiens with 4 samples.

Results

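Classical target genes of the tumor suppressor p53 were followed in ES2 cells, an established human ovarian cancer cell line, after treatment with liquiritigenin (Liq). The 10 genes are MDM2, PLK2, GDF15, SESN1, BTG2, TP53I3, ZMAT3, RRM2B, FDXR and XPC, chosen by name, and all of them are among the 23228 genes listed in the count tables. Liq is a plant flavanone that the study used as an agonist of estrogen receptor beta (ERβ). According to the methods of the study, medium without phenol red and serum stripped with charcoal were used for ERβ agonists. Cells received either vehicle or 100 μM Liq for 24 h, and total RNA was sequenced from 2 samples per group. The labels do not say whether the 2 samples of a group came from separate cultures, so p-values measure the spread between these samples only.

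The protein p53 is a transcription factor that is stabilized by DNA damage and other stress, binds a short DNA element near its target genes and raises their transcription. Its targets arrest the cell cycle, repair DNA, limit oxidative damage or promote apoptosis. One of them, MDM2, encodes the ubiquitin ligase that degrades p53 and so closes a feedback loop. Many targets also respond to other signals, so the level of a single target does not measure p53 activity.

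The 4 libraries had 34573053 to 48933893 reads counted on genes, and 3 counts corresponded to 0.0598 to 0.0844 CPM (read counts scaled to library size, here with TMM normalization). Between 35.63% and 36.23% of the tallied counts in each library stood under alignment to more than 1 place, which the authors' counting left out. Whether that tally holds reads or alignments is not given in the sources used here. Of 10 epithelial and Müllerian markers, 5 were too low to test, among them EPCAM with 1 to 3 counts and CDH1 with 0 in every sample. The other 5 were KRT7 at 252 ± 20, KRT18 at 198 ± 8.9, KRT8 at 23.8 ± 0.71, WT1 at 4.46 ± 0.53 and PAX8 at 1.21 ± 0.026 CPM in vehicle (SD, n = 2). The mesenchymal marker VIM stood at 7480 ± 180 CPM in vehicle (SD, n = 2). Of 7 leukocyte and endothelial markers, 5 were too low to test and the leukocyte markers PTPRC and CD3E had at most 1 count. The 2 that were tested were the myeloid gene LYZ, with 8 to 23 counts, and the endothelial cadherin CDH5. Of these, CDH5 stood at 51.8 ± 1.6 CPM in vehicle and 46.4 ± 2.5 CPM with Liq (SD, n = 2). Markers that passed the test used below were KRT7 and CDH2, which rose, and KRT18, PAX8, WT1, VIM, FN1 and the myeloid gene LYZ (8 to 23 counts), which fell, and their part in the values below was not tested. The gene of ERβ, ESR2, had 4 and 7 counts in vehicle and 5 and 14 with Liq, too few to test, and ESR1 stood at 0.495 ± 0.057 and 0.606 ± 0.10 CPM (SD, n = 2).

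To show sequence at the starts of these genes, the start-site windows of RefSeq (250 bases before to 50 after each annotated start, GRCh38.p14) were searched for the p53 consensus. The consensus is a decamer of 3 purines, C, 2 bases that are A or T, G and 3 pyrimidines, and a full site is 2 such decamers in a row, 20 bases. The consensus reads the same on both strands. A window was found for 9 of the 10 genes, the other gene being RRM2B. The best matches of 6 genes are printed 5′ to 3′ on the strand of the gene, with the match in capitals and its flanks in lower case.
MDM2: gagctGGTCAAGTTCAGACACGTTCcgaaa
GDF15: tgcacAGCCATGCCCGGGCAAGAACtc
SESN1: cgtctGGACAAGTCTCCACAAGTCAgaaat
FDXR: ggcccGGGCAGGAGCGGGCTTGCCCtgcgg
XPC: aagtgGAATTTGCCCAGACAAGCAAcatgg
PLK2: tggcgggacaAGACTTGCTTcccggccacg

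The MDM2 match differed from the consensus at 2 of 20 positions and lay from 94 to 75 bases before an annotated start, at chr12:68808923-68808942 (plus strand). Of 35116 windows of the same length, 0.649% held a match as close as this, a share per window, while 4 windows were searched for MDM2, 3 for SESN1, 2 each for FDXR and ZMAT3 and 1 for each of the other genes. The matches of GDF15 (chr19:18386186-18386205, plus strand), SESN1 (chr6:109009018-109009037, minus strand), FDXR (chr17:74872996-74873015, minus strand) and XPC (chr3:14178570-14178589, minus strand) each differed at 3 positions, and 5.2% of all windows held a match with at most 3 differences. The matches of GDF15 and XPC began 29 and 13 bases into the transcript. PLK2 held 1 decamer without a difference, from 132 to 123 bases before the start (chr5:58460209-58460218, minus strand). SESN1 and FDXR also held a decamer without a difference, as did 6.63% of all windows. BTG2, TP53I3 and ZMAT3 held neither an exact decamer nor a site with at most 3 differences in these windows. The matches are descriptions of sequence, and binding was not measured here.

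In ES2 cells treated with Liq, the p53 targets did not move together. Of the 10 genes, 9 had enough counts to be tested, PLK2 and GDF15 rose, ZMAT3 fell, 6 did not pass the test, and BTG2 was close to 0 counts. PLK2 was the only one past 1.5-fold, the fold threshold of the study. A gene passed when its p-value from edgeR's quasi-likelihood test, adjusted by the Benjamini-Hochberg method over all 13546 tested genes, was under 0.05. By that rule 3 of 9 genes (33.3%) passed, against 24.0% of all tested genes (12.6% higher and 11.3% lower with Liq). With at least 1.5-fold required as well, 1 of 9 passed, against 6.45% of all tested genes (4.29% higher and 2.16% lower). With 1.5-fold and an unadjusted p under 0.05 from edgeR, it was again PLK2 alone, against 7.85% (5.37% higher and 2.49% lower). The median log2 fold change of the 9 genes was 0.086, against 0.006 over all tested genes. The plot of CPM by sample shows the 9 tested genes.

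**Figure D1:**
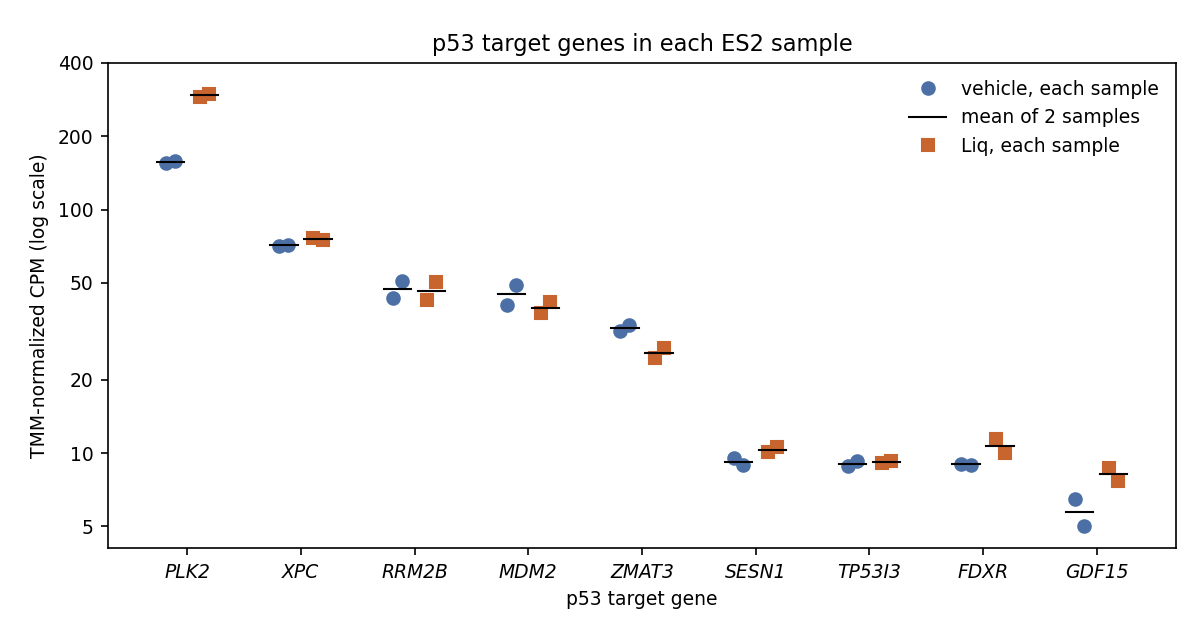
TMM-normalized CPM (log scale) of the 9 tested p53 target genes in each vehicle sample (circles) and each Liq sample (squares), with the mean of the 2 samples as a line. PLK2 stands at 156 and 158 CPM in vehicle and at 290 and 299 with Liq, while the symbols of MDM2, TP53I3 and RRM2B overlap between groups.

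Compared per length of exon (CPM per kilobase, with the union of the GENCODE exons of GRCh37 as length), PLK2 had the highest level of the 10 genes in vehicle, at 33.9, followed by XPC at 15.4, RRM2B at 8.73 and MDM2 at 5.41. TP53I3 followed at 3.92. ZMAT3 at 2.88, GDF15 at 2.75 and FDXR at 2.50 came next, and the sample values of neighbours in this trio overlapped. SESN1 stood at 1.27 and BTG2 at 0.0145. The sample values of all other neighbours in this order did not overlap. The order also depends on the exon lengths used, and the authors' counting may have used other exons. With Liq the first 5 places were the same, and GDF15 (3.93) moved up to overlap with TP53I3 (3.98), ahead of FDXR (2.97) and ZMAT3 (2.29).

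Among the genes that act on growth and stress signaling, PLK2 encodes a polo-like kinase that acts at the centrosome and is induced by p53 as well as by serum. The gene lies on chromosome 5 from 57749809 to 57755966 (GRCh37, minus strand). It was counted 6434 and 5928 times in the vehicle samples and 10317 and 14989 times in the Liq samples, which is 156 and 158 CPM against 290 and 299 CPM. Both Liq samples were far above both vehicle samples, and each Liq sample exceeded each vehicle sample by 1.83 to 1.91 times. The log2 fold change was 0.90 ± 0.07 (SE) at an edgeR adjusted p = 1.927e-10, a fold change of 1.87. It ranked 333 from the top among the log2 fold changes of the 13546 tested genes. The 11 alternative fits gave log2 fold changes of 0.88 to 0.98, all past the threshold.

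GDF15 encodes a secreted cytokine of the TGF-beta family that cells release under stress. The gene lies on chromosome 19 from 18485541 to 18499986 (GRCh37, plus strand). It had 266 and 187 counts in vehicle and 309 and 387 with Liq, or 6.47 and 5.00 CPM against 8.69 and 7.71 CPM. Both Liq samples were above both vehicle samples, but the vehicle samples themselves lay apart. The log2 fold change was 0.51 ± 0.14 (SE, 95% interval 0.23 to 0.79) at an edgeR adjusted p = 0.007867, 1.42-fold. Without vehicle replicate 2 the log2 fold change was 0.34 and did not pass (adjusted p = 0.208, against 0.0006632 to 0.208 over all 11 alternatives).

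BTG2 encodes an antiproliferative protein and is an early target of p53 in many cell types. The gene (chromosome 1 from 203274619 to 203278730, GRCh37) had 0 and 3 counts in vehicle and 5 and 3 with Liq. These values are at or near the limit of 3 counts in each library, so BTG2 was not tested and no fold is given. Its relatives BTG1, BTG3, TOB1 and TOB2, named after their values were seen, stood at 83.9 ± 3.3, 54.5 ± 2.2, 17.6 ± 0.028 and 95.2 ± 2 CPM in vehicle (SD, n = 2), and none of them passed the test.

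The feedback regulator MDM2 lies on chromosome 12 from 69201957 to 69239324 (GRCh37, plus strand). It had 1673 and 1839 counts in vehicle and 1335 and 2087 with Liq, or 40.7 and 49.1 CPM against 37.5 and 41.6 CPM. The groups overlapped, since Liq replicate 2 lay above vehicle replicate 1. The log2 fold change was -0.18 ± 0.09 (SE, 95% interval -0.37 to 0.01) at an edgeR adjusted p = 0.1695, so a rise beyond 0.01 and a fall beyond 0.37 on the log2 scale were both outside the interval. Of the 4 fits without 1 sample, only the one without Liq replicate 2 passed (log2 fold change -0.26, adjusted p = 0.0284), and without vehicle replicate 2 the value was -0.04.

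**Figure D2:**
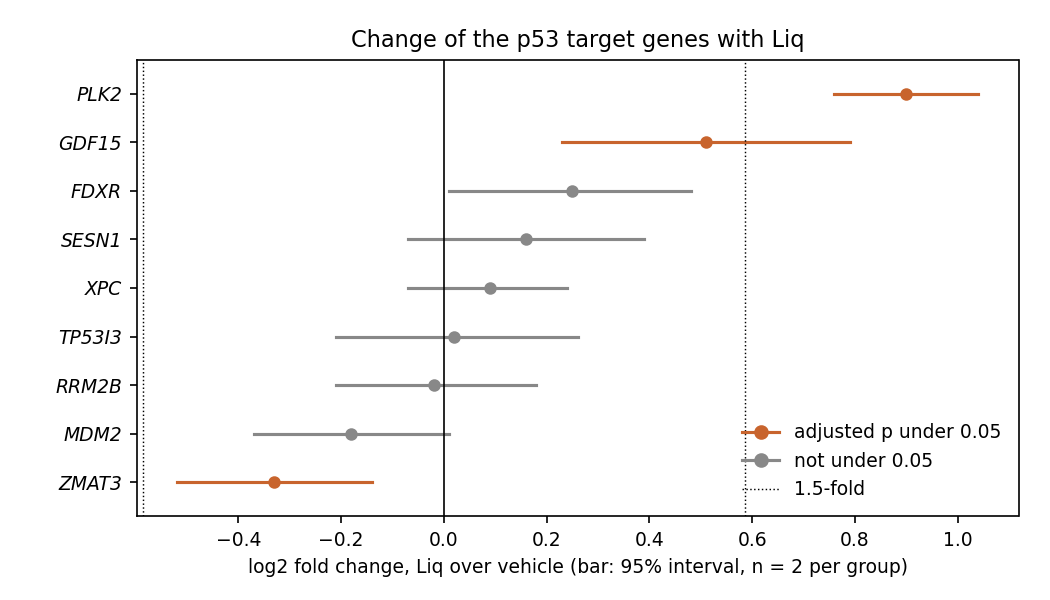
Log2 fold change of Liq over vehicle for the 9 tested p53 target genes (points) with 95% intervals (bars), n = 2 per group. The vertical dotted lines mark 1.5-fold, and PLK2 at 0.90 is the only point beyond one of them, with GDF15 at 0.51 and ZMAT3 at -0.33 also past the test.

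ZMAT3 encodes a zinc finger protein that binds RNA and acts on splicing and transcript stability downstream of p53. The gene lies on chromosome 3 from 178677909 to 178790003 (GRCh37, minus strand). It had 1300 and 1253 counts in vehicle and 874 and 1360 with Liq, or 31.6 and 33.5 CPM against 24.6 and 27.1 CPM. Both Liq samples were below both vehicle samples once library size was taken into account. The log2 fold change was -0.33 ± 0.09 (SE, 95% interval -0.52 to -0.14) at an edgeR adjusted p = 0.01017. It did not pass without vehicle replicate 1 (-0.37, adjusted p = 0.06011) or without vehicle replicate 2 (-0.29, adjusted p = 0.1662), against 0.0009307 to 0.1662 over all 11 alternatives.

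The genes of redox control and mitochondrial metabolism among the 10, SESN1, TP53I3 and FDXR, did not pass. SESN1 encodes a sestrin, a stress protein that restrains the growth kinase complex mTORC1 (chromosome 6 from 109305512 to 109416049, GRCh37). It stood at 9.56 and 8.92 CPM in vehicle and 10.1 and 10.6 CPM with Liq, so that both Liq samples were slightly higher. Its log2 fold change was 0.16 (95% interval -0.07 to 0.39, adjusted p = 0.3143 from edgeR). FDXR encodes ferredoxin reductase, which passes electrons from NADPH to mitochondrial ferredoxin (chromosome 17 from 72858619 to 72869156, GRCh37). It stood at 9.02 and 8.95 CPM in vehicle and 11.4 and 10 CPM with Liq. Both Liq samples were again higher, but the change missed the threshold (log2 fold change 0.25, 95% interval 0.01 to 0.48, adjusted p = 0.1199 from edgeR), and it passed without Liq replicate 2 (0.34, adjusted p = 0.03931).

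TP53I3, also called PIG3, encodes a quinone oxidoreductase (chromosome 2 from 24300303 to 24308731, GRCh37). Its 4 values were 8.85 and 9.27 CPM in vehicle and 9.14 and 9.25 CPM with Liq, the closest agreement between groups in the list together with RRM2B. The log2 fold change was 0.02 (95% interval -0.21 to 0.26, adjusted p = 0.9122 from edgeR). GDF15, SESN1, TP53I3 and FDXR all belong to the 4516 tested genes of lowest expression, where the median log2 fold change was 0.155, against 0.006 among genes of middle and -0.056 among genes of high expression. With offsets that follow the expression level their log2 fold changes were 0.40, 0.08, -0.06 and 0.17, and GDF15 still passed (adjusted p = 0.04019 from edgeR).

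The genes of DNA repair and nucleotide supply did not pass either. XPC encodes the protein that recognizes helix-distorting lesions in nucleotide excision repair (chromosome 3 from 14186647 to 14220121, GRCh37). It stood at 71.0 and 71.6 CPM in vehicle and 76.2 and 75.3 CPM with Liq. The groups did not overlap, but the difference was small (log2 fold change 0.09, 95% interval -0.07 to 0.24, adjusted p = 0.4459 from edgeR). RRM2B encodes the p53-inducible small subunit of ribonucleotide reductase, the enzyme that makes deoxynucleotides (chromosome 8 from 103216730 to 103251189, GRCh37). Its values were 43.3 and 50.8 CPM in vehicle and 42.4 and 50.3 CPM with Liq, and each group spanned nearly the same range. The log2 fold change was -0.02 (95% interval -0.21 to 0.18, adjusted p = 0.9145 from edgeR).

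Counted by whether the 2 groups of samples overlapped, both Liq samples were higher in 5 of the 9 tested genes (PLK2, GDF15, SESN1, FDXR and XPC) and both were lower in 1 (ZMAT3). Over all tested genes these shares were 31.5% and 30.2%, 61.7% in all. An exact permutation test of 2 samples against 2 cannot go below p = 0.3333, and the tests above borrow part of their spread from other genes through edgeR. Some exon sequence of MDM2 (133 bases), TP53I3 (80 bases) and XPC (413 bases) is also covered by another annotated coding gene on the opposite strand, and whether strand was used in counting is not given in the sources used here.

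Relatives of these genes were counted beside them. Of 13 genes of the same families or enzymes, 12 were tested, 3 rose and 3 fell, against 12.6% higher and 11.3% lower among all tested genes. The stress-induced kinase gene PLK3 went from 17.5 and 16.5 CPM in vehicle to 12.4 and 11.6 CPM with Liq, a log2 fold change of -0.51 ± 0.10 (SE) at an edgeR adjusted p = 0.0007052, in the opposite direction to PLK2. The mitotic kinase gene PLK1 had a log2 fold change of -0.21 (adjusted p = 0.04205 from edgeR). That call held in 5 of the 11 alternatives and was lost in 3 of the 4 fits without 1 sample. SESN3, a sestrin controlled by FOXO factors, rose from 5.40 and 7.48 CPM to 15 and 16.1 CPM. That was a log2 fold change of 1.28 ± 0.13 (SE) at an edgeR adjusted p = 2.871e-08, while SESN1 did not pass and SESN2, named after its values were seen, stood at 44 ± 0.83 and 39.1 ± 1.7 CPM (SD, n = 2, adjusted p = 0.1413 from edgeR).

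ZMAT1, a zinc finger gene of the same name series as ZMAT3, rose by a log2 fold change of 0.79 ± 0.15 (SE) at an edgeR adjusted p = 0.0003286, from 4.35 and 5.85 CPM to 9.98 and 7.69 CPM. RRM2, the small subunit of ribonucleotide reductase that cells use in S phase, fell from 352 and 371 CPM to 248 and 270 CPM. Its log2 fold change was -0.48 ± 0.07 (SE) at an edgeR adjusted p = 8.713e-06, beside -0.02 for RRM2B. The MDM2 relative MDM4, which binds and inhibits p53, had 17.9 and 18.2 CPM in vehicle and 23.7 and 20.6 CPM with Liq. Its log2 fold change of 0.29 passed (adjusted p = 0.03409 from edgeR), a call that held in 6 of the 11 alternatives. The call was lost in 3 of the 4 fits without 1 sample, where the lowest value was 0.19. The differences between relatives were not tested as such.

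**Figure D3:**
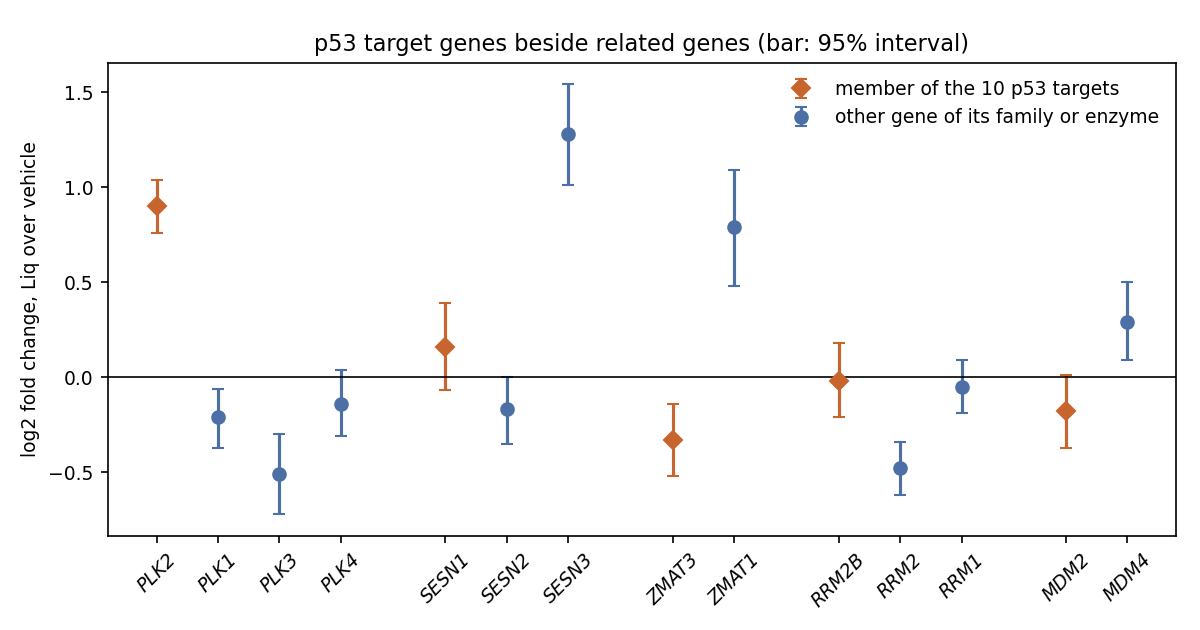
Log2 fold change of Liq over vehicle with 95% intervals for 5 of the p53 targets (diamonds) and for related genes (circles), n = 2 per group. PLK2 at 0.90 stands above zero and PLK3 at -0.51 below it, and SESN3 at 1.28 is the highest point.

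Of 20 genes that are related to p53 or bind, modify or relay signals to it, 19 were tested, 2 rose and 4 fell, none by 1.5-fold, and the median log2 fold change was -0.093, against 0.006 over all tested genes. The share that passed was 31.6%, beside 24.0% of all tested genes. TP63, a p53 family member, stood at 59.8 ± 2.2 and 65.7 ± 1.9 CPM (SD, n = 2, adjusted p = 0.2206 from edgeR), and TP73 had 0 counts in every sample. Besides MDM4, the increase was in CHEK2, the checkpoint kinase that phosphorylates p53 after DNA breaks. It had 23.3 CPM in both vehicle samples and 30.1 and 34.8 CPM with Liq, a log2 fold change of 0.48 ± 0.10 (SE) at an edgeR adjusted p = 0.0005632. The count of CHEK2 is uncertain, because pseudogenes repeat much of its sequence. The genes that fell were PPP1R13L (log2 fold change -0.50), an inhibitor of p53, the acetyltransferase genes KAT5 (-0.30) and EP300 (-0.24), and the chaperone gene DAXX (-0.22). These 4 calls held in 10, 9, 8 and 6 of the 11 alternatives, in the order given. Each of them was lost in at least 1 fit without 1 sample. For PPP1R13L that was the fit without Liq replicate 2 (-0.30, adjusted p = 0.08933 from edgeR).

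A wider list of 48 other p53 targets, written by hand from general knowledge, was split in the same way. Of the 43 that were tested, 6 rose, 6 fell and 31 did not pass, a share of 27.9% passing beside 24.0% of all tested genes. The median log2 fold change was -0.003, against 0.006 over all tested genes. With at least 1.5-fold required as well, 1 rose and 2 fell. By that rule 4.29% of all tested genes rose and 2.16% fell.

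CDKN1A, which encodes the cell cycle inhibitor p21 and is the best known target of p53, fell from 19.1 and 17.8 CPM in vehicle to 8.63 and 8.87 CPM with Liq. The groups were far apart, and the log2 fold change was -1.08 ± 0.11 (SE) at an edgeR adjusted p = 1.999e-08, 2.11-fold lower. It ranged from -1.14 to -1.03 over 11 alternatives, and all of them passed. The other targets that fell included SERTAD1, a coregulator of E2F factors, from 12.4 ± 1.8 to 7.34 ± 0.12 CPM (SD, n = 2), and the nuclease gene AEN, from 68.6 ± 1.1 to 52.9 ± 0.85 CPM (SD, n = 2). PLK3, given above, and BLOC1S2 (log2 fold change -0.34) also fell, the latter not in 3 of the 4 fits without 1 sample.

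The largest increase was that of KITLG, the ligand of the receptor KIT, from 20.4 and 22.4 CPM to 47.2 and 54.7 CPM. It was 2.38-fold higher with Liq by edgeR (95% interval of the log2 fold change 1.06 to 1.45, adjusted p = 2.035e-10), and it passed in all 11 alternatives. RPS27L, a ribosomal protein relative, rose from 75.3 ± 1.6 to 101 ± 0.28 CPM (SD, n = 2), with a log2 fold change of 0.42 at an edgeR adjusted p = 0.0001876. GADD45A, a stress sensor of DNA damage, and CCNG1, cyclin G1, both had log2 fold changes of 0.30, and both lost their call without either vehicle sample. PIDD1, a scaffold for caspase activation, had one of 0.48 and lost its call without Liq replicate 1 (0.26, adjusted p = 0.1105 from edgeR).

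**Figure D4:**
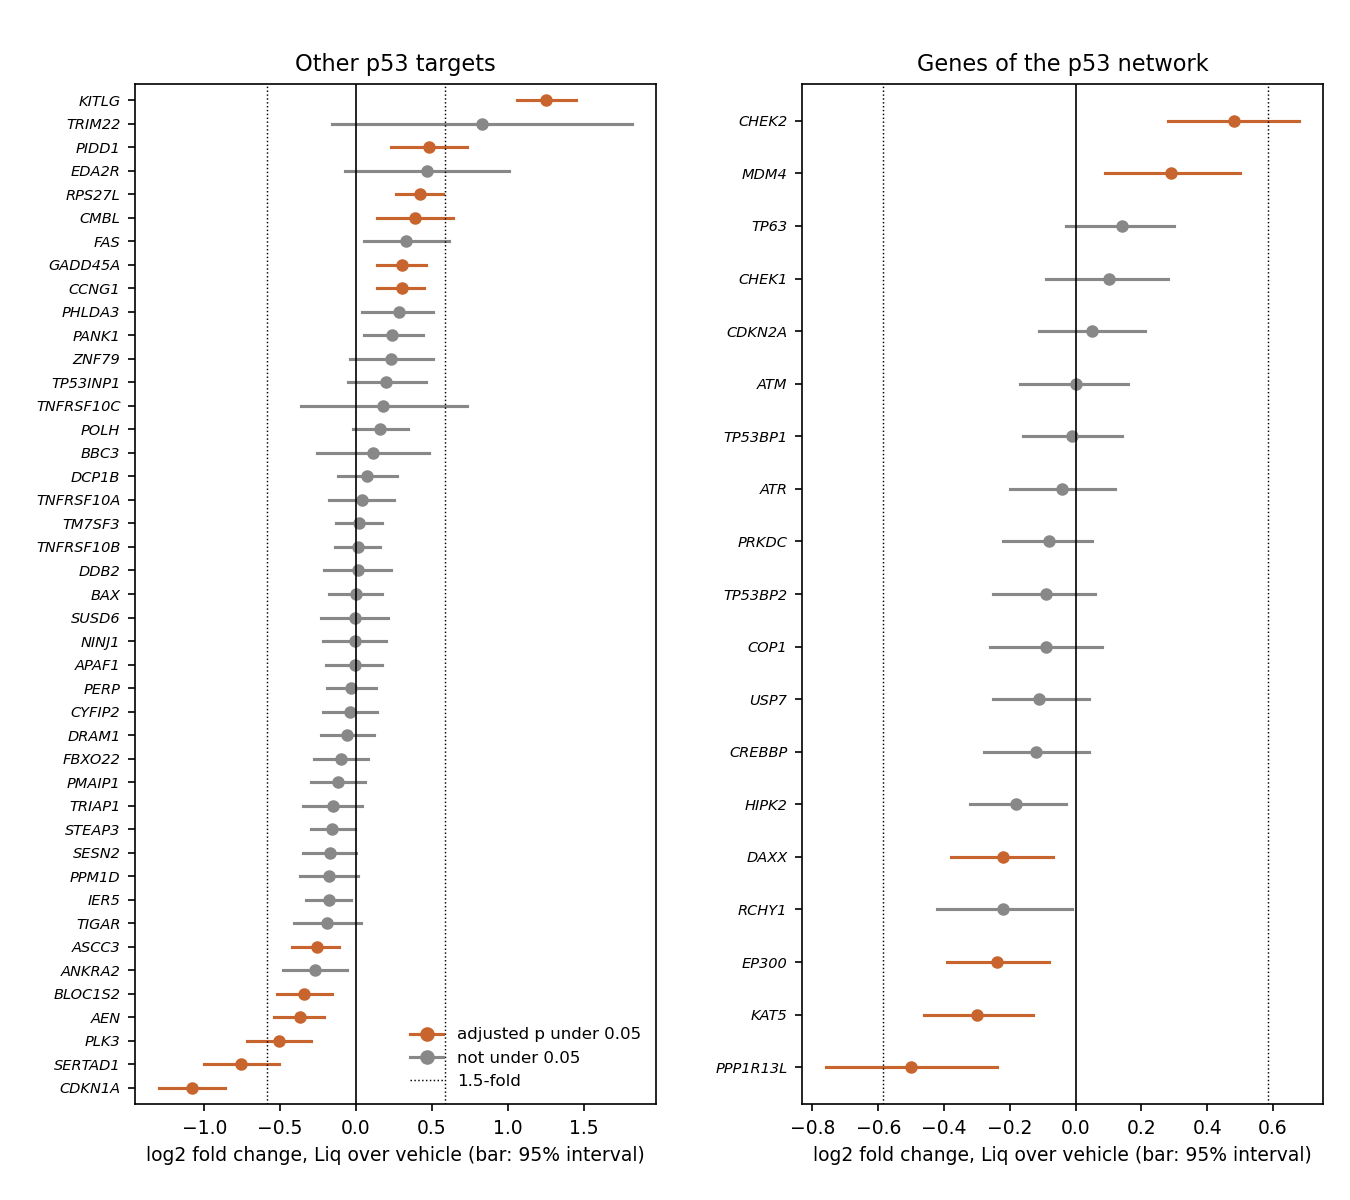
Log2 fold change of Liq over vehicle with 95% intervals for 43 other p53 targets (left) and for 19 genes of the p53 network (right), n = 2 per group. Points past the test lie on both sides of zero, from CDKN1A at -1.08 to KITLG, 2.38-fold higher, in the left panel and from PPP1R13L at -0.50 to CHEK2 at 0.48 in the right panel.

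The gene of p21, CDKN1A, fell with Liq, as given above. Cell cycle genes that are lowered when p53 induces p21 were counted beside it. Of 20 such genes, 0 rose, 4 fell and 16 did not pass, none reached 1.5-fold, and the median log2 fold change was -0.066. The share that passed, all of it lower with Liq, was 20%, beside 24.0% of all tested genes in either direction. By direction, 11.3% of all tested genes fell and 12.6% rose. The genes that fell were RRM2, given above, CDK1 (log2 fold change -0.43, adjusted p = 0.0002316 from edgeR), PLK1 and AURKA (-0.20). The call of AURKA was lost in 5 of the 11 alternatives, among them 3 of the 4 fits without 1 sample. Of 17 genes of nucleotide excision repair and deoxynucleotide supply, the processes of XPC and RRM2B, 1 fell, which was RRM2, and 16 did not pass, a share of 5.88% passing.

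Some p53 targets also respond to other programs, which were counted beside them. PLK2 and BTG2 belong to the genes that serum and growth factors switch on early. Of 22 immediate early genes, 14 fell, 10 of them by at least 1.5-fold, and 0 rose, where 11.3% of all tested genes fell and 2.16% fell by at least 1.5-fold. EGR1 fell from 127 ± 9.4 to 32.9 ± 2.1 CPM and DUSP6 from 398 ± 9.3 to 214 ± 2.7 CPM (SD, n = 2), so PLK2 moved against the genes of this list that passed. GDF15 is also a target of the stress factors ATF4 and CHOP. Of 18 genes of that program, 5 rose, 1 fell and 12 did not pass, a share of 33.3% passing beside 24.0% of all tested genes. The genes of the factors themselves did not pass, and both were named after their values were seen. The log2 fold change was -0.02 for ATF4 (edgeR adjusted p = 0.8313) and 0.19 for DDIT3, which encodes CHOP (edgeR adjusted p = 0.1481). Other annotated coding genes cover 518 of the 1307 exon bases of DDIT3, and the proteins were not measured. SLC7A11, the cystine transporter, had a log2 fold change of 1.36 and NUPR1 one of 0.82, while the fall was in PPP1R15A (-0.49). The part of these programs in the values of PLK2 and GDF15 was not tested.

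The plot of values under each processing choice shows how far each p53 target moved. PLK2 passed under all 11 alternatives, and the signs of TP53I3 and RRM2B, both near zero, depended on the choice.

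**Figure D5:**
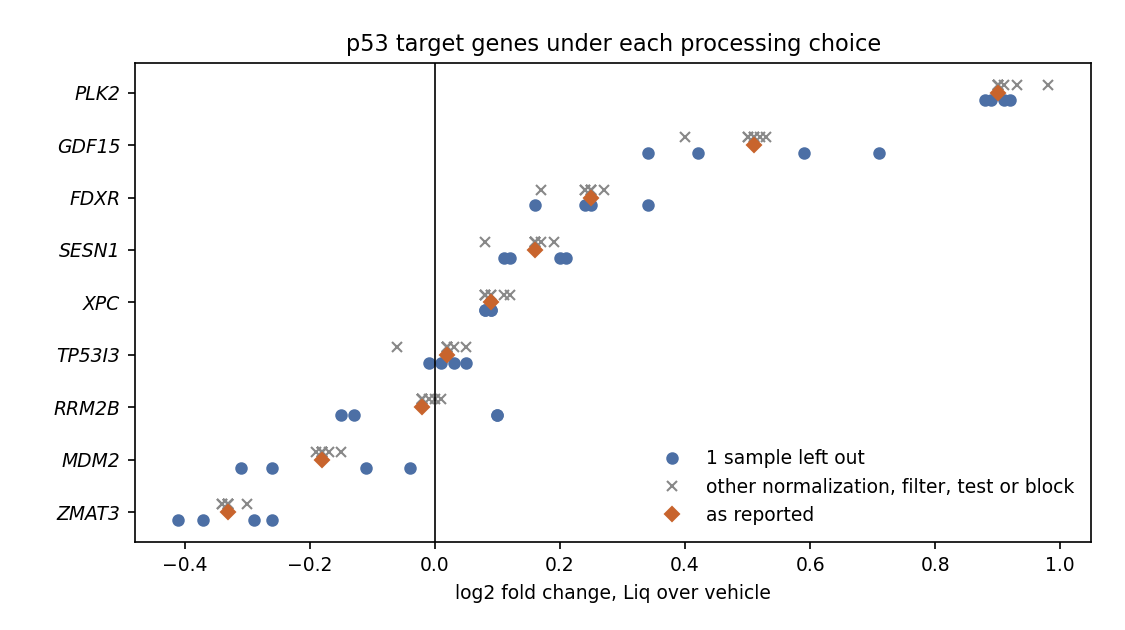
Log2 fold change of Liq over vehicle for the 9 tested p53 targets as reported (diamonds), with 1 sample left out (circles) and with another normalization, filter, test or block (crosses). PLK2 stays between 0.88 and 0.98, GDF15 between 0.34 and 0.71 and ZMAT3 between -0.41 and -0.26.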

How the data were processed

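Total RNA of vehicle-treated and Liq-treated ES2 cells was sequenced by the authors with single-end reads of 100 bases. They aligned the reads to hg19 with TopHat2 2.0.8b, counted reads per gene with HTSeq and deposited raw counts, which were neither normalized nor filtered. The counting strand and the HTSeq version are not given in the sources used here. The dose was taken from the study's methods and the groups and replicate numbers from the sample titles.

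edgeR 4.0.16 in R 4.3.3 was applied to the counts. Tally lines that name no gene stayed out of library sizes and tests, which left 54.06% to 55.62% of the tallied counts. Genes were kept by filterByExpr (minimum count 10, minimum total 15), normalized by TMM and tested by glmQLFit and glmQLFTest without a block, with Benjamini-Hochberg adjustment over 13546 genes. The SE was the size of the log2 fold change divided by the square root of F. CPM are these deposited counts over the TMM-scaled library size. Alternatives were DESeq2 1.42.0 (Wald test or size factors), upper-quartile factors, loess offsets (span 0.3), other filters, a replicate block, the omission of each sample and other call rules. The scripts were tested on simulated data.

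The 10 genes, the gene lists and the tests were chosen with earlier results of these data known. Named were the 10 genes, MDM4, CDKN1A, TP63, TP73, ESR1, ESR2 and, of each list, up to 5 genes per direction with the smallest p among those that passed. Marker genes and genes said to be named after their values were seen fall outside this rule. Some items are not reported here and were left out of the gene lists. Gene coordinates are from GENCODE (GRCh37). The chi-square per degree of freedom was 6.33 between the vehicle and 11.1 between the Liq samples, so none was counted as a repeat of another.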

Additional observations from a re-analysis of the deposited data

How the results depend on the processing

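Of the 9 tested p53 targets, PLK2 passed under all 11 alternatives, GDF15 under 10 and ZMAT3 under 9. Of 35 other genes picked by the naming rule, not all of them named here, 22 kept their sign and outcome, passed or not, under all alternatives. Across the fits without 1 sample, which assume that a lone sample varies like the other group, 1 to 3 of the p53 targets passed higher and 0 to 2 lower with Liq. Other p53 targets had 3 to 7 higher and 4 to 7 lower (median log2 fold change -0.018 to 0.022), network genes 1 to 2 higher and 1 to 4 lower (median -0.122 to -0.066), and all genes 805 to 1966 higher and 608 to 1814 lower, the lowest counts coming without a vehicle sample. TP53I3 ranged from -0.01 to 0.05 and RRM2B from -0.15 to 0.10 in these fits, TP53I3 was -0.06 with loess offsets, and RRM2B was 0.01 with upper-quartile factors. With 1.5-fold required, by adjusted or by unadjusted p, the p53 targets had 1 higher and 0 lower, other targets 1 and 2, and network genes 0 and 0. All genes then had 581 higher and 293 lower by adjusted p, and 727 and 337 by unadjusted p. Loess offsets gave 1 network gene higher and 2 lower and a network median of -0.042, upper-quartile factors gave a median of 0.025 for other targets (all genes shifted by 0.027), and the DESeq2 Wald test called 1 network gene higher and, of all genes, 1086 higher and 1293 lower, where edgeR called 1712 higher and 1533 lower. With the replicate number as a block, 2 p53 targets passed lower (MDM2 besides ZMAT3, adjusted p = 0.03841), other targets had 9 higher and 10 lower, and all genes 2321 higher and 2474 lower. The numbers are not known to pair the samples (correlation of deviations 0.0483). The causes of these shifts were not tested. BTG2 and ESR2 were among the genes with too few counts to test, and at 17 to 34 counts the SE of ESR1 was 0.34, against 0.07 for PLK2.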
